A study of Mus musculus with 12 samples.

Results

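The interferon-induced antiviral effector genes are 40 genes that cells switch on when interferon binds its receptors. They were chosen here by symbol from the 28116 gene symbols of the expression table, with earlier results of these data known. They comprise the IFIT proteins, the ISG15 conjugation enzymes, the OAS family, the Mx proteins with viperin and its neighbour, the nucleic acid sensors, membrane effectors, a group of PARP proteins and several nuclear or other effectors. RNA was measured in tibialis anterior muscles of mdx mice of the strain C57BL/10ScSn-Dmdmdx/J, which lack functional dystrophin and model Duchenne muscular dystrophy, at 4 months of age. Every muscle had received cardiotoxin, a snake venom toxin that destroys fibres and starts regeneration, so no uninjured muscle was included. The toxin was given with either an inhibitor of the microRNA miR-106b (anti-miR-106b) or a scrambled control inhibitor. The 4 groups of 3 mice each were, at day 7 after injection, anti-miR-106b and scrambled, and, at day 3, likewise anti-miR-106b and scrambled. The mice of a group are given as separate animals, but not whether 1 animal gave muscles to more than 1 group. A muscle holds fibres, muscle stem cells, infiltrating leukocytes, fibroblasts and vessels, and in such bulk samples fewer cells of a type and less RNA per cell cannot be told apart.

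Type I interferon binds a receptor made of Ifnar1 and Ifnar2 and activates transcription factors, Stat2 and Irf9 among them, which bind the interferon-stimulated response element in the promoters of many of these genes. Irf7 is itself induced and drives further interferon production. The effectors then bind foreign RNA, degrade it, block translation or stop viral entry and budding. Injured muscle recruits macrophages, which are known to express many of these genes.

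Promoter sequences show the response element where members carry it, and the microRNA sequence shows what the inhibitor was directed against. The promoters were picked from windows that hold the core of the response element, so those of Ifit2, which held none, are left out. Shown are those of Isg15 and Ifit3, which were among the 4 members with the largest differences at day 3. With them are those of Ifit1 and Ifit3b, relatives of Ifit3 in the gene cluster that also holds Ifit2, and of Bst2 and Rsad2 from other role groups. All were taken from RefSeq on GRCm38.p6 and run 5′ to 3′ on the gene's strand, from 250 bases before to 50 bases after the annotated start. Capitals mark every match to the core of the response element, GAAA followed by any 2 bases and GAAA, on either strand; overlapping matches run together. Isg15 lies at chr4:156200769-156201068 on the minus strand. Ifit1, Ifit3 and Ifit3b lie on the plus strand at chr19:34640639-34640938, chr19:34583279-34583578 and chr19:34607707-34608006. Bst2 is at chr8:71537423-71537722 and Rsad2 at chr12:26456403-26456702, both on the minus strand. In the mature microRNA, encoded at chr5:138165787-138165807 on the minus strand, capitals mark the seed, bases 2 to 8.
Isg15: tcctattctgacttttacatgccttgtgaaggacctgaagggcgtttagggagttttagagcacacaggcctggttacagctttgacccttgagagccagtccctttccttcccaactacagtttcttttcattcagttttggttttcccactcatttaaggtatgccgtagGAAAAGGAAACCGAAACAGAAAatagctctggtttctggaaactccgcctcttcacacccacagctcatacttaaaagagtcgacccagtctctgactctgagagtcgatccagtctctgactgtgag
Ifit1: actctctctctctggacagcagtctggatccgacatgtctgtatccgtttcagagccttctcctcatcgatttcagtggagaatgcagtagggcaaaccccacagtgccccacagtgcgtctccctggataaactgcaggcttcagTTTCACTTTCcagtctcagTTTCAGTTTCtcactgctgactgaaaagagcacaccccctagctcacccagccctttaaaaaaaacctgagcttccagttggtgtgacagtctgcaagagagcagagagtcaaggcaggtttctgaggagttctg
Ifit3: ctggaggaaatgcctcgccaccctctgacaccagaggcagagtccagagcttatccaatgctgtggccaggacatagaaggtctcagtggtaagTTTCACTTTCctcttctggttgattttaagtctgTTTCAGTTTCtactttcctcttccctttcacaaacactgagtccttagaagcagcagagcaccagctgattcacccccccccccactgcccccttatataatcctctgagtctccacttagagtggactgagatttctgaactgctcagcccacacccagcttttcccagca
Ifit3b: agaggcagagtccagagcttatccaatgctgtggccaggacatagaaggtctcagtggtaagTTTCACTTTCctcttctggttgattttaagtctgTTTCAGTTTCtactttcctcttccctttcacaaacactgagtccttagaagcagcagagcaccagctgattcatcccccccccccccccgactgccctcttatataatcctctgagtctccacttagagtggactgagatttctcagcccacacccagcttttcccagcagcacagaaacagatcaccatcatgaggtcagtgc
Bst2: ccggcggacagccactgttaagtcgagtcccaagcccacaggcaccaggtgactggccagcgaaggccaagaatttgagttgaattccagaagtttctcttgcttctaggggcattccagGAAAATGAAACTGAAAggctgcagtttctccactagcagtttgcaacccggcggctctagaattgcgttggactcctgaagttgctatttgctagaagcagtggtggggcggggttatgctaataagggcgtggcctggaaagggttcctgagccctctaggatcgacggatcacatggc
Rsad2: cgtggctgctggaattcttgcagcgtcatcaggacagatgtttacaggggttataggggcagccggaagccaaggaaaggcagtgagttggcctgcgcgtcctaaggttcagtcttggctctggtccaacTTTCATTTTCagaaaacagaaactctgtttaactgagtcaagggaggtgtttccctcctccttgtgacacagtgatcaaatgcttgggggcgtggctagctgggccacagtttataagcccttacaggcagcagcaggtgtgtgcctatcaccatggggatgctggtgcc
miR-106b-5p: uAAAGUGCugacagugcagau

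The RefSeq table held 32 promoter windows of 29 members. The response element core occurred in 16 of the 32 windows, which is 50% and covers 15 genes, against 3.44% of the 32851 windows of all genes in the table and 3.21% of the 13633 windows of genes tested here. In 7 member windows it occurred more than once. The 24 matches began between 188 bases before and 33 bases after the annotated start, with a median of 69 bases before it, and 14 began within the 150 bases before the start. In Isg15 the 3 matches began 78, 72 and 66 bases before the start and overlapped. In Ifit1 they began 104 and 85 bases before it. Ifit3 and Ifit3b shared the same pair of matches in a common stretch, at 156 and 122 bases before the start of Ifit3 and at 188 and 154 bases before that of Ifit3b. The windows of Oasl1 and Ifi44, the other 2 of the 4 members with the largest day 3 differences, held none in these letters. TTCNNNGAA, the core of the gamma interferon activated site, occurred in 6 of the 32 member windows (18.8%), against 8.30% of all windows and 6.70% of the windows of tested genes. Both motifs were searched on both strands, and a match describes letters in the window, not binding.

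**Figure D1:**
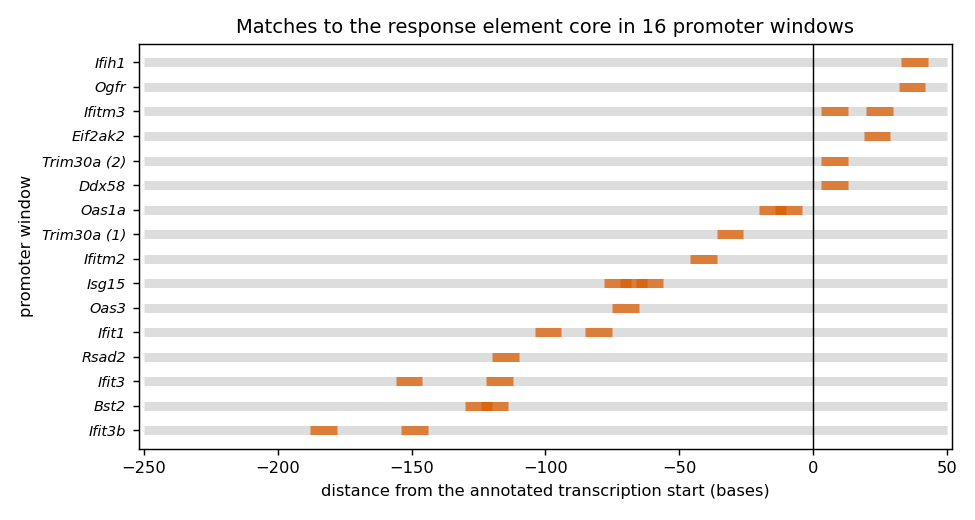
Matches to the response element core in the 16 member promoter windows that hold one. The horizontal axis gives the distance from the annotated transcription start in bases, grey bars are the 300-base windows and orange blocks are the matches on either strand; Isg15 carries 3 overlapping matches and the matches span 188 bases before to 33 bases after the start.

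All 40 members were in the table and all passed the filter on low values, a level of 1 CPM (CPM scales the reads of a gene to a common library total) reached by 3 or more libraries out of 12. That filter retained 14063 genes. The libraries held 28857739 to 42825246 reads assigned to genes. All 40 reached 1 CPM in each of the 6 day 3 libraries, so no member entered the test through 1 arm alone at that time. At day 7, 36 of the 40 reached it in every library of the anti-miR-106b group and 36 in every library of the scrambled group. The exceptions were Oas3, Mx1 and Mx2 in both arms, Oasl1 in anti-miR-106b muscles and Zbp1 in scrambled muscles. Mitochondrially encoded genes took 9.94 to 10.7% of reads in anti-miR-106b and 8.18 to 10.5% in scrambled muscles at day 7. At day 3 they took 4.80 to 4.83% in anti-miR-106b and 7.54 to 7.76% in scrambled muscles, and the part of this shift in the results was not tested.

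At day 3 the antiviral programme stood higher with anti-miR-106b across every role group. Of the 40 members, 38 rose in anti-miR-106b muscles against scrambled muscles at an adjusted p below 0.05 (limma, Benjamini-Hochberg over all genes tested), and none fell. Of all 14063 genes, 16.3% rose and 19.4% fell by the same rule, and 36.7% rose and 9.9% fell when libraries were scaled to total reads, which put the median of all genes at 0.20 and left 40 members higher. The median log2 fold change of the 40 members was 0.74, a 1.68-fold higher level, while the median over all genes tested was 0.01. The differences ran from 0.37 ± 0.13 (SE) for Eif2ak2 to 1.20 ± 0.18 for Isg15. In all 40 members every anti-miR-106b library lay above every scrambled library, which held for 31.2% of all genes tested. Oas3 and Mx1 missed the threshold, at adjusted p = 0.0566 and 0.0530, with log2 fold changes of 0.89 ± 0.34 and 0.83 ± 0.31. Ranked by log2 fold change among all genes tested, 28 members were in the top 500 and 31 in the top 1000. Because the members were chosen with earlier results of these data known, the shares of all genes are a description beside them. They are no test of the set.

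By size, the log2 fold change at day 3 was at least 1 for Isg15, Ifi44, Ifit3 and Oasl1. It was between 0.75 and 1 for 15 members, among them Oas1a, Ifit1, Mx2, Bst2, Ly6e and Uba7. It was between 0.5 and 0.75 for 18, among them Rsad2, Usp18, Ogfr, Ifitm3 and the 3 PARP genes Parp9, Parp12 and Parp14. Ifih1, Dtx3l and Eif2ak2 were below 0.5. The median standard error was 0.146, so most neighbours in this order do not differ beyond their error.

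**Figure D2:**
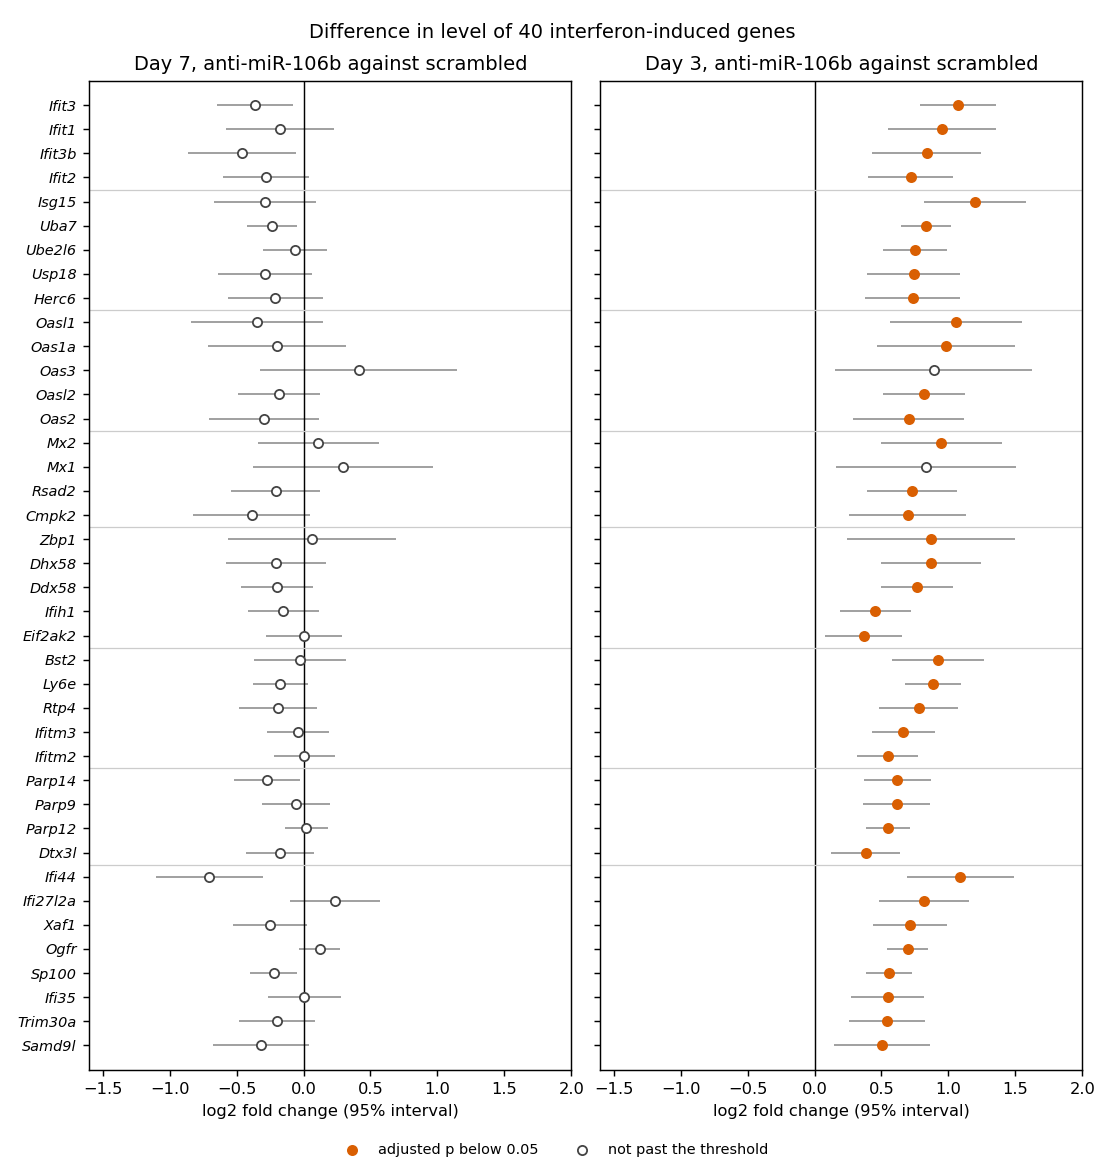
Log2 fold change of each of the 40 genes, anti-miR-106b against scrambled, at day 7 (left) and day 3 (right), with 95% intervals from limma. Grey lines separate the role groups and filled points passed an adjusted p below 0.05; at day 3 38 of 40 points are filled and all lie above 0, and at day 7 none is filled and 30 lie below 0.

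The IFIT proteins bind RNA with foreign end structures and block its translation; all 4 rose at day 3. Together they summed to 251 ± 7.33 CPM in anti-miR-106b muscles and 133 ± 15.2 CPM in scrambled muscles at day 3 (SD, n = 3 each). At day 7 Ifit3 had 2.81, 2.28 and 2.55 log2 CPM in anti-miR-106b muscles, against 2.80, 2.82 and 3.10 in scrambled muscles. At day 3 Ifit3 had 6.75, 6.85 and 6.75 log2 CPM in anti-miR-106b muscles, against 5.92, 5.50 and 5.72 in scrambled muscles. The arms overlapped at day 7 and were apart at day 3, where the log2 fold change of Ifit3 was 1.07 ± 0.13 (adjusted p = 1.06e-04). Ifit2 had 6.18, 6.14 and 6.14 log2 CPM in anti-miR-106b muscles at day 3, against 5.46, 5.38 and 5.48 in scrambled muscles. Its log2 fold change was 0.72 ± 0.15 (adjusted p = 0.00243). Ifit1 had 5.44, 5.63 and 5.60 log2 CPM in anti-miR-106b muscles at day 3, against 4.90, 4.34 and 4.57 in scrambled muscles, a log2 fold change of 0.95 ± 0.19 (adjusted p = 0.00175). Ifit3b gave 0.84 ± 0.19 (adjusted p = 0.00402). Of the 50-base windows of the Ifit3 transcripts 51.2% occur in Ifit3b, so reads may have been split between them; their sum was 132 ± 5.69 CPM in anti-miR-106b and 65.3 ± 9.26 CPM in scrambled muscles at day 3, a ratio of 2.03. The 4 genes lie in 1 cluster on chromosome 19, from Ifit2 at chr19:34550694-34576419 to Ifit1 at chr19:34640871-34650009.

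Isg15 encodes a ubiquitin-like modifier, which Uba7 activates, Ube2l6 carries and, in mouse, Herc6 attaches to target proteins, while Usp18 removes it and dampens receptor signalling. All 5 rose at day 3. Isg15 (chr4:156199424-156200818) had 1.65, 0.92 and 1.50 log2 CPM in anti-miR-106b muscles at day 7, against 1.36, 1.57 and 2.01 in scrambled muscles. At day 3 Isg15 had 5.87, 5.95 and 5.73 log2 CPM in anti-miR-106b muscles, against 4.69, 4.64 and 4.63 in scrambled muscles. The arms overlapped at day 7, and at day 3 the lowest anti-miR-106b library stood 1.04 above the highest scrambled one. The log2 fold change at day 3, 1.20 ± 0.18 (adjusted p = 3.00e-04), was the highest of the 40 members. Uba7 had 2.97, 2.74 and 2.78 log2 CPM in anti-miR-106b muscles at day 7, against 3.03, 3.01 and 3.17 in scrambled muscles. At day 3 Uba7 had 5.78, 5.68 and 5.52 in anti-miR-106b muscles, against 4.85, 4.79 and 4.84 in scrambled muscles. Uba7 thus lay below its control at day 7, without passing the test (-0.24 ± 0.09, adjusted p = 0.324), and rose at day 3 by 0.83 ± 0.09 (adjusted p = 4.01e-05). Ube2l6 had 5.99, 5.78 and 5.80 log2 CPM in anti-miR-106b muscles at day 3, against 5.12, 5.13 and 5.08 in scrambled muscles, a log2 fold change of 0.75 ± 0.11 (adjusted p = 3.08e-04). Usp18 and Herc6 gave 0.74 ± 0.16 and 0.73 ± 0.17 at day 3. The modifier, the enzymes that attach it and the enzyme that removes it therefore all changed in the same direction.

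The OAS enzymes make oligoadenylates that activate the ribonuclease RNase L; Oasl1, which lacks this activity, represses translation of Irf7 in mouse. Of the 5 members 4 rose at day 3. Oasl2 had 3.10, 2.61 and 2.75 log2 CPM in anti-miR-106b muscles at day 7, against 2.81, 2.84 and 3.36 in scrambled muscles. At day 3 Oasl2 had 7.01, 6.75 and 6.79 in anti-miR-106b muscles, against 6.05, 6.01 and 6.04 in scrambled muscles, and the log2 fold change was 0.82 ± 0.14 (adjusted p = 8.33e-04). Oasl1 had 4.91, 4.74 and 4.58 log2 CPM in anti-miR-106b muscles at day 3, against 3.90, 3.62 and 3.54 in scrambled muscles. The arms were apart and the log2 fold change was 1.06 ± 0.23 (adjusted p = 0.00326). Oas1a had 5.35, 5.21 and 5.21 in anti-miR-106b muscles at day 3, against 4.23, 4.32 and 4.28 in scrambled muscles, a log2 fold change of 0.98 ± 0.24 (adjusted p = 0.00649). Of the Oas1a windows 57.6% are shared with Oas1g, and the sum of both was 52.3 ± 3.86 CPM in anti-miR-106b and 26.4 ± 0.168 CPM in scrambled muscles at day 3, a ratio of 1.98. Oas2 gave 0.70 ± 0.19 (adjusted p = 0.0119). Oas3, which did not pass, had 0.86, -0.71 and -0.20 log2 CPM in anti-miR-106b muscles at day 7, against -0.71, -0.89 and 0.32 in scrambled muscles. At day 3 Oas3 had 5.24, 4.86 and 5.08 in anti-miR-106b muscles, against 4.22, 4.06 and 4.23 in scrambled muscles. The day 3 arms of Oas3 were apart, while its day 7 libraries held 17 to 56 reads in the anti-miR-106b group and 19 to 39 in the scrambled group and entered the same estimate of spread. In a limma fit of the 2 day 3 groups alone Oas3 passed, at adjusted p = 3.86e-06. That fit called more genes across the table: 27.3% rose and 25.2% fell, against 16.3% and 19.4% in the fit of all 12 libraries.

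Mx proteins, where intact, are dynamin-like GTPases that trap viral components, Rsad2 (viperin) makes a chain-terminating nucleotide, and Cmpk2 is a mitochondrial nucleotide kinase. Whether the Mx1 and Mx2 RNA measured here encodes intact protein was not examined. Mx2, Rsad2 and Cmpk2 rose at day 3. Mx1 had 0.55, -0.22 and -0.09 log2 CPM in anti-miR-106b muscles at day 7, against -1.03, -0.23 and 0.62 in scrambled muscles. At day 3 Mx1 had 5.10, 5.47 and 5.31 in anti-miR-106b muscles, against 4.61, 4.21 and 4.56 in scrambled muscles. Mx1 therefore had a wide spread at low level on day 7 and arms apart on day 3. With the 2 day 3 groups alone its adjusted p in limma was 2.72e-05, in a fit where 27.3% of all genes rose. Mx2, annotated as a polymorphic pseudogene, had 3.23, 3.44 and 3.35 log2 CPM in anti-miR-106b muscles at day 3, against 2.59, 2.18 and 2.41 in scrambled muscles. Its log2 fold change was 0.95 ± 0.21 (adjusted p = 0.00374). Rsad2 had 5.21, 5.42 and 5.42 in anti-miR-106b muscles at day 3, against 4.97, 4.41 and 4.49 in scrambled muscles, and gave 0.73 ± 0.16 (adjusted p = 0.00294). Cmpk2 had 4.41, 4.72 and 4.65 in anti-miR-106b muscles at day 3, against 4.28, 3.57 and 3.84 in scrambled muscles. Its arms were the closest of the 40 members, 0.126 apart, and the log2 fold change of 0.70 ± 0.20 (adjusted p = 0.0170) did not pass without any 1 of anti-miR-106b replicates 2 and 3 or scrambled replicates 2 and 3 at day 3 (adjusted p 0.0536 to 0.0871). Rsad2 (chr12:26442746-26456452, minus strand) and Cmpk2 (chr12:26469204-26479837, plus strand) are divergent neighbours.

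Among the sensors, Ddx58 (RIG-I) and Ifih1 (MDA5) detect viral RNA and start interferon production, Dhx58 (LGP2) tunes them, Eif2ak2 (PKR) halts translation on double-stranded RNA, and Zbp1 binds left-handed nucleic acid and can trigger cell death. All 5 rose at day 3, and Ifih1 and Eif2ak2 were 2 of the 3 members with a log2 fold change below 0.5. Ddx58 had 2.80, 2.53 and 2.74 log2 CPM in anti-miR-106b muscles at day 7, against 2.62, 2.81 and 3.22 in scrambled muscles. At day 3 Ddx58 had 5.42, 5.33 and 5.45 in anti-miR-106b muscles, against 4.71, 4.60 and 4.59 in scrambled muscles, and its log2 fold change was 0.77 ± 0.13 (adjusted p = 5.33e-04). Dhx58 had 5.21, 5.16 and 5.10 in anti-miR-106b muscles at day 3, against 4.25, 4.29 and 4.32 in scrambled muscles, a log2 fold change of 0.87 ± 0.17 (adjusted p = 0.00194). The replicates of Dhx58 were tight and the arms far apart. Zbp1 had 5.69, 5.49 and 5.51 in anti-miR-106b muscles at day 3, against 4.65, 4.78 and 4.65 in scrambled muscles. Its log2 fold change was 0.87 ± 0.29 (adjusted p = 0.0320), and it did not pass without any 1 of the 6 day 3 libraries (adjusted p 0.0667 to 0.0936). Ifih1 had 4.80, 4.73 and 4.85 in anti-miR-106b muscles at day 3, against 4.31, 4.33 and 4.37 in scrambled muscles, a log2 fold change of 0.45 ± 0.12 (adjusted p = 0.0118). Eif2ak2 gave 0.37 ± 0.13 (adjusted p = 0.0447) and lost its call under 9 of the alternatives, among them leaving out any 1 of the 6 day 3 libraries (adjusted p 0.0547 to 0.134).

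**Figure D3:**
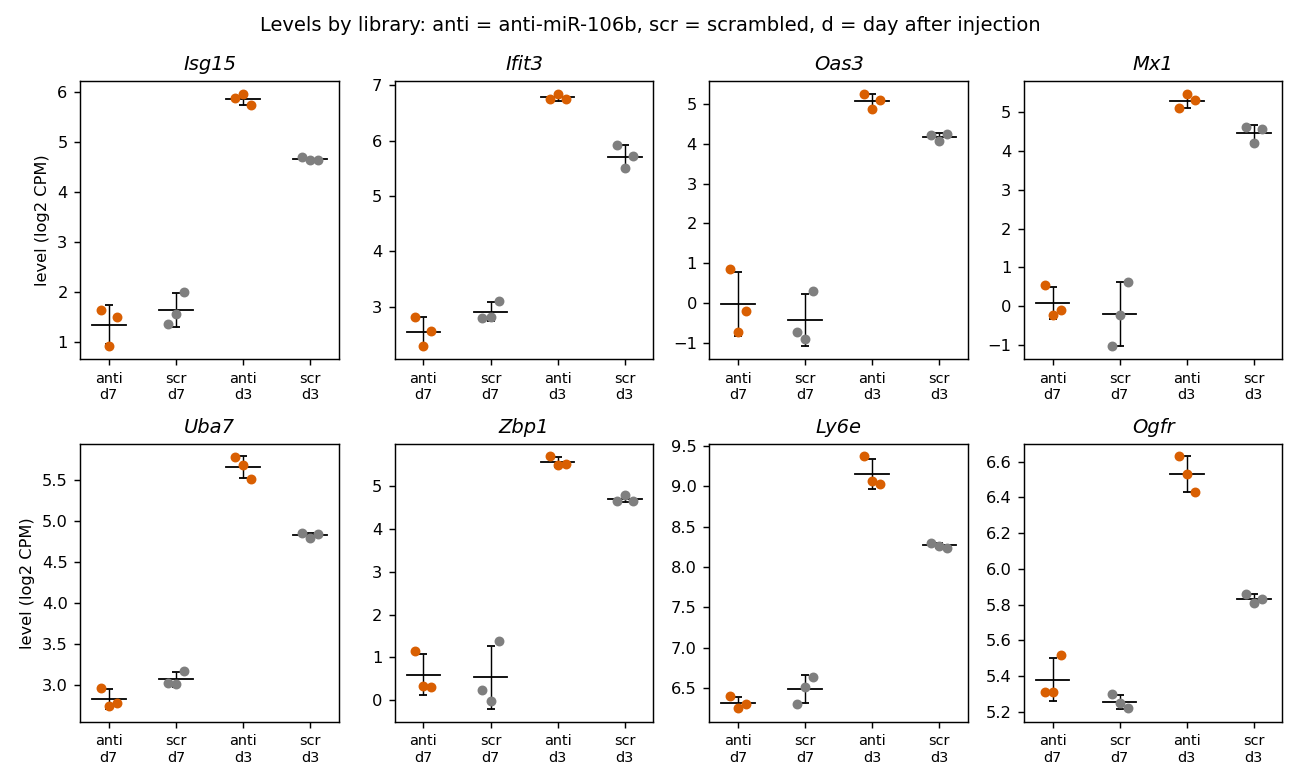
Level of 8 members in each library in log2 CPM, with the mean and SD of each group of 3 mice as bars; orange points are anti-miR-106b muscles and grey points scrambled muscles, and each panel has its own axis. In each panel the day 3 anti-miR-106b libraries lie above the day 3 scrambled libraries, while at day 7 the arms of Isg15, Ifit3, Oas3, Mx1, Zbp1 and Ly6e overlap.

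All 5 membrane effectors rose at day 3. Bst2 (tetherin) ties budding virus to the cell, Ifitm2 and Ifitm3 block fusion of virus with endosomes, Ly6e is a surface protein of the Ly6 family, and Rtp4 is a receptor transporter protein. Ly6e had 6.40, 6.25 and 6.30 log2 CPM in anti-miR-106b muscles at day 7, against 6.30, 6.52 and 6.64 in scrambled muscles. At day 3 Ly6e had 9.37, 9.06 and 9.03 in anti-miR-106b muscles, against 8.30, 8.26 and 8.24 in scrambled muscles. With overlapping arms at day 7 and separate ones at day 3, its day 3 log2 fold change was 0.88 ± 0.10 (adjusted p = 4.44e-05). Ifitm3 had 8.14, 7.99 and 7.77 in anti-miR-106b muscles at day 3, against 7.27, 7.35 and 7.30 in scrambled muscles, and gave 0.66 ± 0.11 (adjusted p = 5.56e-04). Bst2 had 4.51, 4.13 and 4.40 log2 CPM in anti-miR-106b muscles at day 7, against 3.92, 4.52 and 4.69 in scrambled muscles. At day 3 Bst2 had 7.61, 7.37 and 7.30 in anti-miR-106b muscles, against 6.56, 6.45 and 6.51 in scrambled muscles, a log2 fold change of 0.92 ± 0.16 (adjusted p = 7.65e-04). Rtp4 and Ifitm2 gave 0.78 ± 0.14 and 0.55 ± 0.11. Of the Ifitm2 windows 48.5% occur in other transcripts, mainly Gm45717, which overlaps it on the same strand, so its value is uncertain. The 5 membrane effectors summed to 172 ± 14.1 CPM in anti-miR-106b and 185 ± 23.8 CPM in scrambled muscles at day 7. At day 3 they summed to 1096 ± 130 CPM in anti-miR-106b muscles and 621 ± 10.4 CPM in scrambled muscles (SD, n = 3 each).

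Parp9 works with the ubiquitin ligase Dtx3l, and Parp12 and Parp14 attach single ADP-ribose units to proteins. All 4 rose at day 3, with a median log2 fold change of 0.58. Parp14 had 3.71, 3.41 and 3.62 log2 CPM in anti-miR-106b muscles at day 7, against 3.59, 3.82 and 4.14 in scrambled muscles. At day 3 Parp14 had 6.10, 6.04 and 6.11 in anti-miR-106b muscles, against 5.53, 5.39 and 5.47 in scrambled muscles. The groups overlapped at day 7 and not at day 3, where the log2 fold change was 0.62 ± 0.12 (adjusted p = 0.00123). Parp9 had 5.53, 5.47 and 5.55 in anti-miR-106b muscles at day 3, against 4.98, 4.80 and 4.94 in scrambled muscles, a log2 fold change of 0.61 ± 0.12 (adjusted p = 0.00147). Parp12 gave 0.55 ± 0.08 (adjusted p = 1.99e-04). Dtx3l gave 0.38 ± 0.12 (adjusted p = 0.0229) and did not pass without anti-miR-106b replicate 1, anti-miR-106b replicate 3 or scrambled replicate 2 at day 3 (adjusted p 0.0559 to 0.0876). Parp9 (chr16:35938470-35972605, plus strand) and Dtx3l (chr16:35926511-35939151, minus strand) overlap in 458 exon bases on opposite strands, and it is not given whether reads were counted by strand.

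The 8 remaining members all rose at day 3. They are Trim30a of the TRIM family, Sp100 of nuclear bodies, Samd9l, an inhibitor of translation, Xaf1, a binding partner of the apoptosis inhibitor XIAP, Ifi44, Ifi27l2a, Ifi35, and Ogfr, the opioid growth factor receptor. Ogfr had 5.31, 5.31 and 5.52 log2 CPM in anti-miR-106b muscles at day 7, against 5.30, 5.25 and 5.22 in scrambled muscles. At day 3 Ogfr had 6.63, 6.53 and 6.43 in anti-miR-106b muscles, against 5.86, 5.81 and 5.83 in scrambled muscles. It was the only member whose anti-miR-106b libraries all lay above the scrambled ones on both days, and its day 3 log2 fold change of 0.70 ± 0.07 had the lowest adjusted p of the set, 3.90e-05. Ifi44 had 0.52, 0.37 and 0.46 log2 CPM in anti-miR-106b muscles at day 7, against 0.68, 1.33 and 1.44 in scrambled muscles. At day 3 Ifi44 had 4.43, 3.90 and 4.37 in anti-miR-106b muscles, against 3.20, 2.99 and 3.23 in scrambled muscles. Ifi44 was thus the member whose order of arms differed most between the days, below scrambled at day 7 (-0.70 ± 0.18, adjusted p = 0.179) and above it at day 3 (1.09 ± 0.18, adjusted p = 6.76e-04). Ifi27l2a had 7.63, 7.21 and 7.14 in anti-miR-106b muscles at day 3, against 6.51, 6.49 and 6.52 in scrambled muscles, a log2 fold change of 0.82 ± 0.16 (adjusted p = 0.00138). The others gave 0.71 ± 0.13 for Xaf1, 0.56 ± 0.08 for Sp100, 0.55 ± 0.13 for Ifi35, 0.54 ± 0.13 for Trim30a and 0.50 ± 0.17 for Samd9l. Samd9l, at adjusted p = 0.0310, lost its call under 7 of the alternatives, among them leaving out any 1 of the 6 day 3 libraries (adjusted p up to 0.108).

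At day 7 no member differed between the arms past the threshold, in either direction. Over all 14063 genes 0.00711% rose and 0.0569% fell (0.064% in either direction) with anti-miR-106b at that time, by limma at an adjusted p below 0.05. Of the 40 members 10 had a positive and 30 a negative log2 fold change, with a median of -0.19, while the median over all genes was 0.01. The extremes were 0.41 ± 0.34 for Oas3 and -0.70 ± 0.18 for Ifi44. With voom weights on the recovered reads the count was also 0. At an unadjusted p below 0.05 it was 6 of 40, all lower, namely Ifi44, Ifit3, Uba7, Sp100, Ifit3b and Parp14. Over all 14063 genes it was 1580 in either direction. That count was not split by direction, so it is no direct match for the members, which were all lower. Uba7 and Ifi44 had every anti-miR-106b library below every scrambled one, and Ogfr had every one above; 5.69% of all genes were apart in the lower and 5.18% in the higher direction. A missed threshold does not show that the arms were alike, but the 95% interval lay below a log2 fold change of 0.5 for 35 of the 40. The 5 others were Oas3, Mx1, Zbp1, Ifi27l2a and Mx2. This bounds an increase only. The lower ends of the 40 intervals had a median of -0.48, so a decrease of that size stayed within the interval of many members. The count rested in part on scrambled replicate 1 at day 7: without that library 3 members fell, Ifi44 (adjusted p = 0.00738), Xaf1 (0.0314) and Ifih1 (0.0499). In that fit 1.71% of all genes fell and 1.54% rose, so calls became more frequent in both directions across the table.

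The difference between the arms changed between the days in most members. The change was taken as the anti-miR-106b effect at day 7 minus that at day 3, in 1 limma fit over all 12 libraries. It was negative in all 40 and passed in 34, against 9.07% of all genes that passed in this direction and 13.2% in the other (22.3% in either). With scaling to total reads 24.8% of all genes passed in this direction and 6.21% in the other, while 36 members passed in this direction. The median change over the members was -0.94 log2 units, while that over all genes was -0.00. It was most negative for Ifi44 (-1.79 ± 0.26, adjusted p = 9.93e-04), Isg15 (-1.49 ± 0.25, adjusted p = 0.00199) and Ifit3 (-1.43 ± 0.19, adjusted p = 6.59e-04), and least for Eif2ak2 (-0.37 ± 0.19, adjusted p = 0.177). Uba7 had the lowest adjusted p, 4.70e-04, at -1.07 ± 0.12. Beside Eif2ak2, the members that did not pass were Oas3 (-0.48 ± 0.48), Mx1 (-0.53 ± 0.44), Mx2 (-0.84 ± 0.30), Zbp1 (-0.81 ± 0.41) and Ifi27l2a (-0.59 ± 0.22). Dtx3l, Ifi35, Ifih1, Ifitm2, Oas1a and Samd9l each missed the threshold under 3 to 8 of the alternatives, most of them with 1 library left out (adjusted p 0.0504 to 0.109). This comparison shares all its libraries with those above, so it restates the day 3 and day 7 values as 1 test.

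Between the days the whole programme declined in both arms. In anti-miR-106b muscles all 40 members fell at day 7 against day 3, when 40.8% of all genes fell and 37.9% rose (78.7% in either direction), or 67.9% and 15.5% with scaling to total reads; their median log2 fold change was -2.99. In scrambled muscles 39 of 40 fell, when 35.3% of all genes fell and 32.9% rose (68.2% in either direction), or 60.8% and 10.8% with scaling to total reads, and the median was -1.98. The days did not overlap in any member in anti-miR-106b muscles, as in 41.7% of all genes in this direction, and in scrambled muscles Ifi35 was the 1 member whose days overlapped, against 37.5% of all genes apart. The steepest declines were those of Mx1, -5.21 ± 0.31 in anti-miR-106b and -4.68 ± 0.31 in scrambled muscles, Oas3, -5.07 ± 0.34 in anti-miR-106b and -4.60 ± 0.34 in scrambled muscles, and Zbp1, -4.96 ± 0.29 in anti-miR-106b and -4.15 ± 0.29 in scrambled muscles. The shallowest were those of Ifi35, -0.77 ± 0.13 in anti-miR-106b muscles and -0.23 ± 0.13 in scrambled muscles, where it missed the threshold (adjusted p = 0.118). Ogfr and Dtx3l were next, at -1.15 ± 0.07 and -1.20 ± 0.12 in anti-miR-106b muscles, against -0.58 ± 0.07 and -0.64 ± 0.12 in scrambled muscles. By role group, the median decline was deepest in the OAS family, -4.11 in anti-miR-106b and -3.03 in scrambled muscles. It was shallowest in the PARP group, -1.82 in anti-miR-106b and -1.23 in scrambled muscles. These 2 comparisons have no library in common with each other, but each shares its libraries with the comparisons of the arms.

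**Figure D4:**
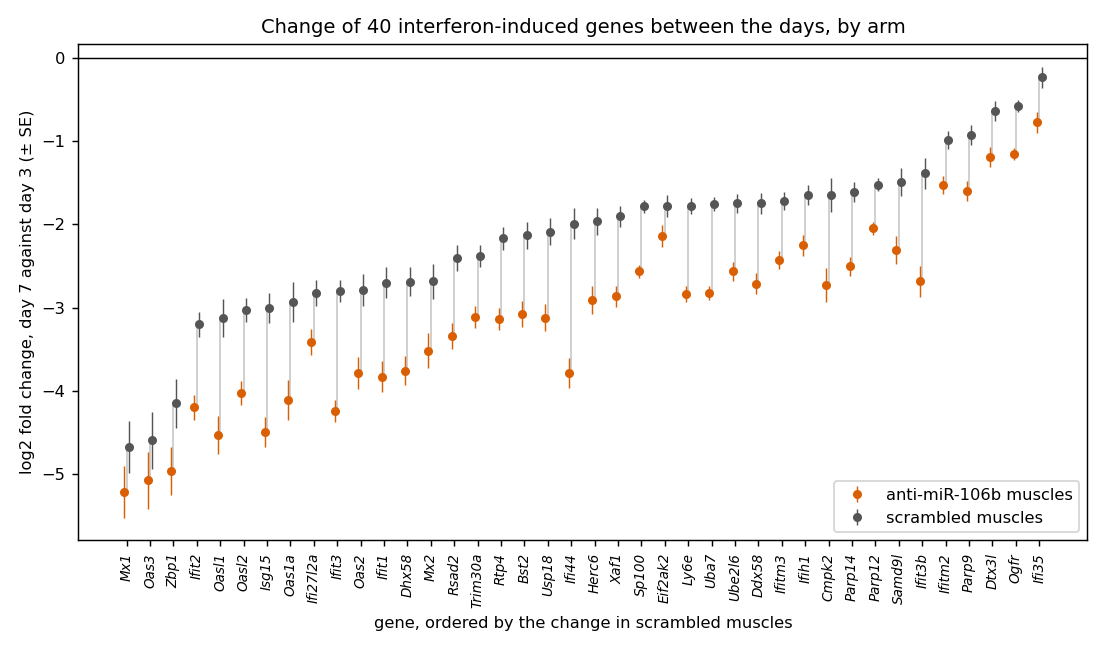
Log2 fold change of each member at day 7 against day 3, in anti-miR-106b muscles (orange) and scrambled muscles (grey), with SE bars from limma; genes are ordered by the change in scrambled muscles. Every orange point lies below the grey point of the same gene, from -5.21 and -4.68 for Mx1 to -0.77 and -0.23 for Ifi35.

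As a sum, the 40 members had 461, 379 and 431 CPM in anti-miR-106b muscles at day 7, against 397, 468 and 505 CPM in scrambled muscles. At day 3 they had 3035, 2736 and 2649 CPM in anti-miR-106b muscles, against 1688, 1589 and 1623 CPM in scrambled muscles. The arms overlapped at day 7, with a ratio of mean sums of 0.928, and were apart at day 3, with a ratio of 1.72. As a share of all reads this was 0.0351% in anti-miR-106b and 0.0387% in scrambled muscles at day 7, and 0.358% in anti-miR-106b and 0.183% in scrambled muscles at day 3. Per transcript length, in CPM per 1000 bases of exon (RPKM), the median member stood at 1.24 in anti-miR-106b and 1.41 in scrambled muscles at day 7, and at 10.7 in anti-miR-106b and 6.41 in scrambled muscles at day 3. Ifitm3 was the highest on this scale in every group, with 69.0 ± 8.57 RPKM in anti-miR-106b and 71.0 ± 8.45 in scrambled muscles at day 7, and 371 ± 46.6 in anti-miR-106b and 233 ± 6.27 in scrambled muscles at day 3. Ifi27l2a was second at day 3, with 351 ± 67.1 RPKM in anti-miR-106b and 196 ± 2.37 in scrambled muscles, which in the anti-miR-106b arm is within the spread of Ifitm3. Bst2, Ly6e and Ifitm2 followed, at 191 ± 22.0, 151 ± 20.1 and 86.4 ± 6.67 RPKM in anti-miR-106b muscles at day 3. Herc6 was the lowest at day 3, with 1.33 ± 0.0519 RPKM in anti-miR-106b and 0.799 ± 0.0562 in scrambled muscles.

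Of 18 genes listed for interferon receptors and signalling, 10 rose and 1 fell at day 3, when 16.3% of all genes rose and 19.4% fell. The median of the 18 log2 fold changes was 0.31. Irf7 had 2.89, 2.47 and 2.68 log2 CPM in anti-miR-106b muscles at day 7, against 2.65, 2.86 and 3.59 in scrambled muscles. At day 3 Irf7 had 7.92, 7.58 and 7.55 in anti-miR-106b muscles, against 6.60, 6.52 and 6.52 in scrambled muscles. The day 3 arms were apart, and the log2 fold change of Irf7 was 1.14 ± 0.19 (adjusted p = 5.69e-04). Stat2 had 6.03, 5.95 and 5.90 in anti-miR-106b muscles at day 3, against 5.23, 5.22 and 5.21 in scrambled muscles, and gave 0.74 ± 0.09 (adjusted p = 1.41e-04). Irf9, its partner at the response element, rose by 0.53 ± 0.12. Of the receptor chains, Ifnar2 gave 0.53 ± 0.11, Ifnar1 0.30 ± 0.10 and Ifngr1 0.28 ± 0.07, while Ifngr2 fell (-0.29 ± 0.07, adjusted p = 0.00622). Jak1, Jak2 and Tyk2, the receptor kinases, gave -0.17 ± 0.07, -0.22 ± 0.12 and 0.20 ± 0.08 and did not pass. Of 12 genes of the pathway that induces interferon, Tmem173 (STING), Ikbke, Tlr3 and Trim25 rose and Traf3 fell. At day 7 none of the 18 and none of the 12 passed in limma; at an unadjusted p below 0.05 there was 1 in each list, Irf5 (0.38) and Trim56 (-0.39), no more than the share of all genes, 1580 of 14063. The change of the effect between the days passed for Irf7 (-1.49 ± 0.27, adjusted p = 0.00251) and Stat2 (-0.94 ± 0.13, adjusted p = 9.72e-04).

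Of 20 interferon genes listed, Ifna13, Ifnk, Ifnz and Ifng had a row in the table, none of these reached the filter, and none had more than 9 reads in any library. The other 16, Ifnb1 among them, had no row under these symbols in the table, so no value was available for them. The 4 summed to between 1 and 4 reads a library in anti-miR-106b and 0 and 4 in scrambled muscles at day 7, and to between 6 and 12 in anti-miR-106b and 2 and 8 in scrambled muscles at day 3. These genes were not tested, and reads this few do not allow a comparison of the arms.

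Markers of leukocytes and fibres also differed between the arms at day 3, when 16.3% of all genes tested rose and 19.4% fell. In 31.2% of all genes every anti-miR-106b library lay above every scrambled one. Of 14 macrophage markers, all above the filter, 8 rose and none fell at day 3, their median was 0.48 on the log2 scale, and in 12 the arms did not overlap. Aif1 gave 1.11 ± 0.20 and C1qb 0.82 ± 0.18, while Adgre1 (0.36 ± 0.16, adjusted p = 0.101) and Itgam (0.29 ± 0.18, adjusted p = 0.214) did not pass. The log2 fold change was positive in 13 of the 14, and the lowest, -0.26, did not pass. Their sum was 448 to 691 CPM in anti-miR-106b and 417 to 656 CPM in scrambled muscles at day 7. At day 3 it was 4695.5 to 5115 CPM in anti-miR-106b and 3356 to 3419 CPM in scrambled muscles, a ratio of mean sums of 1.47, beside 1.72 for the 40 members. Between the days the macrophage sum fell to 0.121 of its day 3 level in anti-miR-106b muscles and to 0.165 in scrambled muscles, beside 0.151 and 0.279 for the members. The part of macrophage content in the result was not tested. Of 9 muscle fibre markers, which were abundant in every library, 8 fell at day 3. The other 1 had a log2 fold change of 0.56 and did not pass, with every anti-miR-106b library above every scrambled one. At day 3 the sum of the 9 was 52817 to 58033 CPM in anti-miR-106b and 79274 to 95952 CPM in scrambled muscles. Of 6 monocyte markers Plac8 rose, and of the 4 neutrophil markers that passed the filter none passed the test in limma, also not at an unadjusted p below 0.05, with a median log2 fold change of 0.73. Pacsin1 rose among the 2 plasmacytoid dendritic cell markers tested, Cd4 among 4 of T and NK cells, and Cd79b was the 1 B cell marker tested and rose. The T and NK cell sum was 15.5 to 20.7 CPM in anti-miR-106b and 10.46 to 10.55 CPM in scrambled muscles at day 3. Its ratio of mean sums was 0.875 at day 7 and 1.70 at day 3, beside 0.928 and 1.72 for the members. At day 3 the ratio was 1.59 for the B cell and 1.56 for the plasmacytoid dendritic cell markers. The part of these cells in the result was not tested. The defining markers Cd3d, Cd3g, Cd8a, Cd79a, Ms4a1 and Ncr1 stayed below the filter, with at most 50 reads in a library. Endothelial markers rose in 4 of 8 and fibroblast markers in 1 of 6, Col1a1, and none of either list fell past the threshold. The log2 fold change was positive in 6 of the 8 endothelial and 2 of the 6 fibroblast markers, with medians of 0.18 and -0.08. In 2 markers of each list every anti-miR-106b library lay below every scrambled one, as in 29.3% of all genes. A count of 1 in 6, in fibroblast and monocyte markers alike, is near the 16.3% of all genes that rose.

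**Figure D5:**
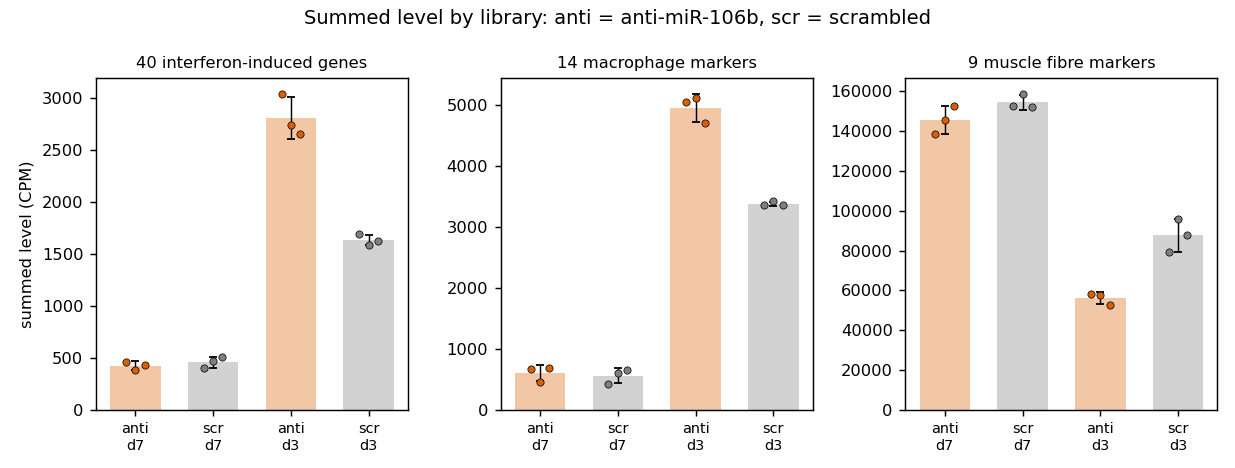
Summed level in CPM of the 40 interferon-induced genes, 14 macrophage markers and 9 muscle fibre markers in each library; bars are means of 3 mice with SD and points are libraries. At day 3 the first 2 sums are higher in anti-miR-106b than in scrambled muscles (ratios 1.72 and 1.47) and the muscle fibre sum is lower (ratio 0.641), while at day 7 the ratios are 0.928, 1.08 and 0.942.

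The 3′ UTRs of the 40 members were searched for the letters that pair with the seed of miR-106b-5p shown above. The 8-base site GCACTTTA occurred in 0 of the 40, against 4.45% of the 12931 tested genes with an annotated 3′ UTR. The 7-base site GCACTTT occurred in 5 of the 40, against 14.98% of all, and the 6-base CACTTT in 14 of the 40, against 43.2% of all. The median 3′ UTR was 990.5 bases long in the members and 1371 bases in all tested genes. The 5 sites of 7 bases are shown with their flanks, and capitals mark the 7-base match. Matches to the 6-base site alone are not shown.
Ifit1: aggcatattgtgGCACTTTtatcctggatt
Ifit3: ttgggaggcaacGCACTTTggggcacaggc
Cmpk2: gtaaattatcatGCACTTTgaatgtcttct
Eif2ak2: ctgcttctcaaaGCACTTTggacctttgca
Xaf1: aaagtgctcttgGCACTTTgggtgaccaag
The day 3 log2 fold changes of these 5 were 0.95 for Ifit1, 1.07 for Ifit3, 0.70 for Cmpk2, 0.37 for Eif2ak2 and 0.71 for Xaf1, which spans nearly the whole range of the 40. Isg15, with the highest value, had none of the 3 sites, and the part of such sites in the result was not tested. A match is a description of letters and not a measured interaction.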

How the data were processed

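RNA of 12 tibialis anterior muscles, 3 mice in each of 4 groups, was extracted with a Direct-zol kit and made into libraries with an Illumina TruSeq RNA kit, per the labels' protocols. The submitters' processing notes name limma 3.34.9, edgeR 3.20.9, featureCounts, STAR, Trim Galore 0.4.3.1, FastQC 0.72 and the build mm10; their order, settings and use of strand are not given in the sources used here. The authors deposited log2 CPM per gene symbol and library, and the values themselves show a scaling of libraries and a small prior count. Whole reads could be recovered from these values within 0.001 for all libraries, and gave totals of 28857739 to 42825246 reads, so that 1 CPM stood for 28.1 to 46.9 reads. Reads are not independent molecules.

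The deposited log2 CPM were fitted with limma 3.58.1 in R 4.3.3 (1 mean per group over all 12 libraries, variances moderated along a trend in mean level), for 14063 genes with 1 CPM in at least 3 libraries. Tests were two-sided, p-values were adjusted by Benjamini-Hochberg over all genes tested, and a gene was called at an adjusted p below 0.05. The design text gives one time once as another day; the sample labels, days 3 and 7, were used. p-values rest on the spread between the 3 animals within each group, pooled over the 4 groups and moderated across genes. The members and lists were chosen with earlier results of these data known. Values in every library are given for the 1 or 2 members of each role group with the highest mean log2 CPM and the 1 or 2 with the largest day 3 log2 fold change; Oas3, Cmpk2 and Ifih1 were added after their values were seen. RPKM were computed from the deposited log2 CPM and the exon length in GENCODE M21 (GRCm38), which also gave gene coordinates and 3′ UTRs, while promoters and the mature microRNA came from RefSeq on GRCm38.p6. Sequence shared between transcripts was counted in windows of 50 bases. Alternatives varied the scaling, the filter, the added count, library weights, the replicate block, the groups in the fit and the libraries left out. Some items are not reported here.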

Additional observations from a re-analysis of the deposited data

Results flagged for a closer look

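For 34 of the 40 members the effect of anti-miR-106b differed between the days in a test of that difference itself (limma, adjusted p below 0.05 over all genes tested). Of all 14063 genes, 9.07% passed with a negative and 13.2% with a positive difference in the same test. The value is the log2 fold change of anti-miR-106b against scrambled at day 7 minus that at day 3. Among the IFIT genes it was -1.13 for Ifit1, -1.0 for Ifit2, -1.43 for Ifit3 and -1.30 for Ifit3b. In the ISG15 system it was -1.49 for Isg15, -1.07 for Uba7, -1.03 for Usp18, -0.82 for Ube2l6 and -0.94 for Herc6. In the OAS family it was -1.18 for Oas1a, -1.0 for Oas2, -1.41 for Oasl1 and -1.0 for Oasl2. Rsad2 had -0.94 and Cmpk2 -1.08. Among the sensors it was -0.60 for Ifih1, -0.97 for Ddx58 and -1.07 for Dhx58. Among the membrane effectors it was -0.95 for Bst2, -0.54 for Ifitm2, -0.70 for Ifitm3, -1.06 for Ly6e and -0.97 for Rtp4. In the PARP group it was -0.67 for Parp9, -0.53 for Parp12, -0.89 for Parp14 and -0.56 for Dtx3l. The others were -0.74 for Trim30a, -0.78 for Sp100, -0.82 for Samd9l, -0.96 for Xaf1, -1.79 for Ifi44, -0.54 for Ifi35 and -0.58 for Ogfr.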

How the results depend on the processing

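At day 3 the count of members higher with anti-miR-106b was 38 and lay between 37 and 40 under 10 other settings (scaling to total reads, quantile normalization, a filter at 0.5 CPM or none, 1 or 5 CPM added, library weights, a replicate block, only the 2 groups compared, and voom weights on the recovered reads, the last chosen after seeing the data). Leaving out each of the 12 libraries in turn gave 33 to 40. The share of all genes higher at day 3 also moved. It ran from 7.07% without a filter to 36.7% with scaling to total reads, and from 10.2% to 19.1% with a library left out. At day 7 the count of members lower was 0 under the same 10 settings, and 0 to 3 with a library left out; the 3 came without scrambled replicate 1 at day 7, where 1.71% of all genes fell and 1.54% rose, against 0.0569% and 0.00711% with all libraries. The members whose effect changed between the days numbered 34, with 32 to 39 under 9 settings and 29 to 38 with a library left out. Over all genes the share with a negative change ran from 3.58% without a filter to 24.8% with scaling to total reads. With a library left out it ran from 5.6% to 14.9%. The declines stayed at 40 in anti-miR-106b and 39 to 40 in scrambled muscles. Over all genes the share that declined ran from 25.4% to 67.9% in anti-miR-106b and from 20% to 60.8% in scrambled muscles. The lower ends came without a filter and the upper ends with scaling to total reads. No direction of a called value reversed. Libraries with the same replicate number did not deviate together (correlations of -0.185 to 0.144 over 12 pairs), so the numbers were not taken to pair them; with a replicate block 37 members were higher at day 3 (Oas3 gained, Eif2ak2 and Samd9l lost, adjusted p = 0.0971 and 0.0724) and 32 had a changed effect (Samd9l and Ifi35 lost, 0.0637 and 0.0842). Scaling to total reads put the median of all genes at -0.22 for the change, -0.65 for the days in anti-miR-106b and -0.41 in scrambled muscles. The edgeR alternative was not run; voom weights on the recovered reads stand in its place. At day 7, 16 to 56 reads a library stood behind Oas3, Mx1 and Mx2, which limits their precision.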
